A study of Mus musculus with 8 samples.

Results

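The 10 genes described here, Atoh1, Sox2, Isl1, Krt8, Krt18, Krt20, Piezo2, Piezo1, Cck and Rab3c, are genes of Merkel cells and of touch reception. They were chosen by name among the 20887 genes with a symbol on the array (37018 genes in all, with or without a symbol), and each was read from the probe with the highest mean over the 8 arrays. Whisker follicle RNA came from female mice heterozygous for the Min allele of Apc (ApcMin/+), which is carried by both groups. The E7386 group of 4 samples was dosed by mouth at 30 mg/kg 2 times per day, in 4 cycles of 5 dosing days and 2 rest days that began at 8 weeks of age, and the vehicle group also holds 4 samples. E7386 is known as an inhibitor of the interaction between beta-catenin and its coactivator CBP. Follicles were taken 6 h after the last dose. Nothing in the labels says that the samples of a group are separate mice, so p-values measure the spread between these samples, which may be technical. The tissue is a whole follicle with many cell types, and a lower signal from fewer cells of a type cannot be told apart from less RNA per cell.

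Merkel cells are touch-sensitive epithelial cells that sit in the outer root sheath of whisker follicles, next to endings of slowly adapting sensory nerve fibres. They arise from epidermal cells that switch on the transcription factor Atoh1, they build filaments from simple epithelial keratins, and they hold dense-core vesicles and release machinery like those of neurons. Force opens the ion channel Piezo2 in the Merkel cell and in the nerve ending. Wnt signalling is among the signals known to act on hair follicle fate, and the comparison asks whether genes of this cell differ after a long course of a compound aimed at that pathway.

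The 250 bases before the annotated start of 4 of the genes are printed from RefSeq (build GRCm38.p6), because Atoh1 defines the lineage, Krt8 and Krt18 encode filament partners and Krt20 is the keratin most specific to Merkel cells in skin. Capitals mark every CTTTGA on either strand, a core of the motif bound by TCF/LEF factors, and every CANNTG, the E-box read by Atoh1 and other basic helix-loop-helix factors. The windows are chr6:64728875-64729124 on the plus strand, chr15:102004343-102004592 on the minus strand, chr15:102027966-102028215 on the plus strand and chr11:99438154-99438403 on the minus strand, each written 5′ to 3′ along the gene.
Atoh1: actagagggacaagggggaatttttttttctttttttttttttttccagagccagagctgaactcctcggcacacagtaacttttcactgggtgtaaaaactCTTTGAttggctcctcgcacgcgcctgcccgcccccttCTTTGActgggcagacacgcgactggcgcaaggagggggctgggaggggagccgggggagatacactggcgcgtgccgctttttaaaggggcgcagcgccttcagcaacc
Krt8: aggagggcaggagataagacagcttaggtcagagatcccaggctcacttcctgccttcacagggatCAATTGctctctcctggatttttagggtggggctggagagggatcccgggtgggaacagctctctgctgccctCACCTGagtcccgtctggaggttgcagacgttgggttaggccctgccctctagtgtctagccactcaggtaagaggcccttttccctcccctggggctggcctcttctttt
Krt18: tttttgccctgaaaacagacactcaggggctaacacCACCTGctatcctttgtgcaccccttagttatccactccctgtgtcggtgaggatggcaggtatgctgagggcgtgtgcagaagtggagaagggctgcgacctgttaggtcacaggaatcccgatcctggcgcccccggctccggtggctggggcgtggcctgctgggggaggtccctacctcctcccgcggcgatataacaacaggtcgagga
Krt20: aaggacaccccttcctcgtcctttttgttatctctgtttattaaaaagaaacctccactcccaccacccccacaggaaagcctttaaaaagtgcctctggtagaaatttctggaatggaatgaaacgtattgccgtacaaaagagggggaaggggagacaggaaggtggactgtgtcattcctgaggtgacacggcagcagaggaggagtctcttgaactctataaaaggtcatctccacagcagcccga
Atoh1 holds 2 CTTTGA and 0 CANNTG, and the first bases of the CTTTGA matches lie 148 and 110 bases before the start. Krt8 holds 2 CANNTG, Krt18 holds 1, and neither holds CTTTGA. Krt20 holds neither motif. Among the 9 members whose windows were searched (all but Piezo2), 2 hold CTTTGA (Atoh1 and Rab3c) and 5 hold CANNTG. Over all 32851 promoter windows of the same length, 13.8% hold CTTTGA and 66.2% hold CANNTG, and no matches overlap in the sequences printed. A match of letters is a description of the sequence, not of binding. Krt8 and Krt18 are close neighbours on chromosome 15, with 2 annotated genes between them, both long non-coding RNAs, and they are read from opposite strands.

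All 10 genes are on the array, on 14 probes in total, and all 10 passed the filter on dim probes. That filter asks for signal well above background, as set by the scanner program, on at least 3 of the 4 arrays of a group. 9 of the 10 were well above background on all 8 arrays, and Isl1 was so on 3 of 4 E7386 arrays and 4 of 4 vehicle arrays. A probe printed as several spots counts on an array where most of its unmarked spots are well above background. For Isl1 these were 5 of 10 unmarked spots on E7386 replicate 1, which did not count. They were 5 of 7 on vehicle replicate 1, where 3 spots were marked and left out. Signals are given as log2 of the processed signal minus the 75th percentile of the same array, so 0 is the level of that percentile. Levels of different probes are not compared, except that the sums of markers add them, so bright probes weigh most there. None of the 10 genes passed the threshold (limma, adjusted p under 0.05 over the 25352 genes tested), where 1.13% of all genes tested did (198, or 0.781%, higher and 89, or 0.351%, lower with E7386). With array medians as the scale the split over all genes was 136 higher and 108 lower. At an unadjusted p under 0.05, 1 of the 10 stood out, Krt18, higher with E7386, where 15.0% of all genes tested did (7.87% higher and 7.13% lower). Means were higher with E7386 for 7 of the 10, against 53.8% of all genes tested, and the median log2 change was 0.12, against 0.02 over all genes tested. The groups of arrays did not overlap for 1 of the 10, again Krt18, against 10.4% of all genes tested (5.13% higher with E7386).

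**Figure D1:**
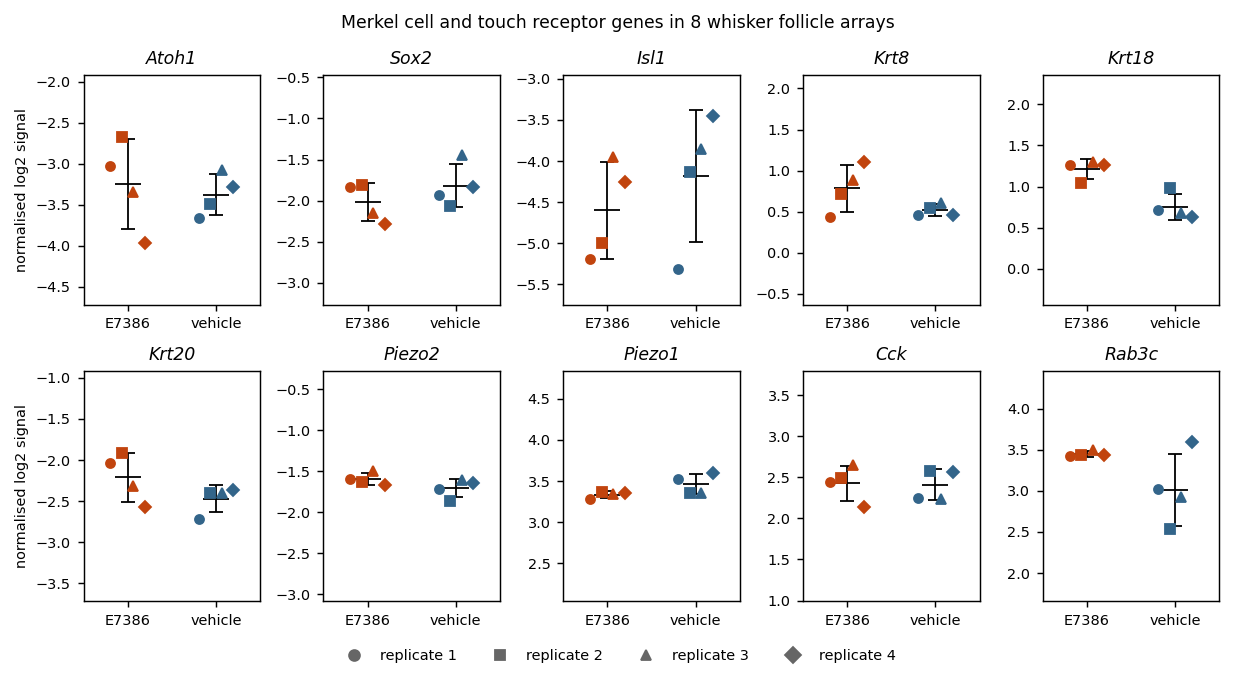
Normalised log2 signal of each of the 10 genes on every array, E7386 at the left and vehicle at the right of each panel, with each replicate number as its own symbol and the mean ± SD in black (n = 4 each). Every panel spans the same height on the log2 scale. Krt18 is the gene whose groups do not touch, while Isl1 has the widest scatter within groups and the E7386 arrays of Rab3c and Piezo1 are the tightest.

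Of the transcription factors, Atoh1, the basic helix-loop-helix factor required for Merkel cells to form, had normalised log2 signals of -3.03, -2.67, -3.34 and -3.96 on E7386 arrays 1 to 4, against -3.66, -3.49, -3.08 and -3.28 on vehicle arrays 1 to 4. The E7386 values enclosed all vehicle values, so the highest and the lowest array of all were both in the E7386 group. The mean was -3.25 ± 0.54 with E7386 and -3.38 ± 0.25 with vehicle (SD, n = 4 each), a log2 change of 0.13 (SE 0.26, limma adjusted p = 0.875). The 95% interval of the fold ran from 0.718 to 1.67. The sign of the change turned without E7386 replicate 2 (-0.06). Sox2, an HMG-box factor of Merkel cells that is also active in dermal papilla cells, had -1.83, -1.81, -2.15 and -2.28 with E7386, against -1.93, -2.06, -1.45 and -1.84 with vehicle. The groups overlapped, with a single vehicle array, replicate 3, above all others. Its log2 change was -0.20 (SE 0.16, limma adjusted p = 0.625), with a 95% interval of the fold from 0.675 to 1.13.

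Isl1, a LIM-homeodomain factor found in Merkel cells and sensory neurons, is printed as 10 spots of the same probe on each array. Its mean over unmarked spots was -5.19, -5.00, -3.95 and -4.26 on E7386 arrays, against -5.31, -4.13, -3.85 and -3.45 on vehicle arrays. E7386 replicates 1 and 2 and vehicle replicate 1 were the low arrays, and the groups overlapped over nearly their whole range. Within an array the SD over unmarked spots was 0.07 to 0.51 on E7386 arrays and 0.15 to 0.23 on vehicle arrays, while the SD between arrays was 0.59 with E7386 and 0.80 with vehicle. The scanner program marked 0 to 2 of the spots on each E7386 array and 0 to 3 on each vehicle array as outliers of their set, and these were left out. The log2 change was -0.41 (SE 0.43, limma adjusted p = 0.708), and the fold interval from 0.378 to 1.49 was the widest of the 10 genes. Single arrays moved this change, to -0.22 when E7386 replicate 1 was left out and -0.63 for E7386 replicate 3, and to -0.79 for vehicle replicate 1 and -0.17 for vehicle replicate 4. Normexp gave -0.04.

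The 3 low arrays of Isl1 were also the 3 with the least muscle signal. The summed signal of 11 skeletal muscle markers, in multiples of the array's 75th percentile, was 128, 207, 744 and 823 on E7386 arrays and 100, 499, 642 and 739 on vehicle arrays. All 11 muscle markers were well above background on all 8 arrays. The muscle sum thus varied about as widely in one group as in the other, and 0 of its markers passed the threshold. With the mean muscle marker level as a covariate, an alternative chosen after the values were seen, the change of Isl1 was -0.33 with an SE of 0.13 (limma adjusted p = 0.234), and that of Krt18 was 0.47 (adjusted p = 0.0759). The arrays fall into a low and a high set of muscle signal, so no correlation over all 8 is given.

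**Figure D2:**
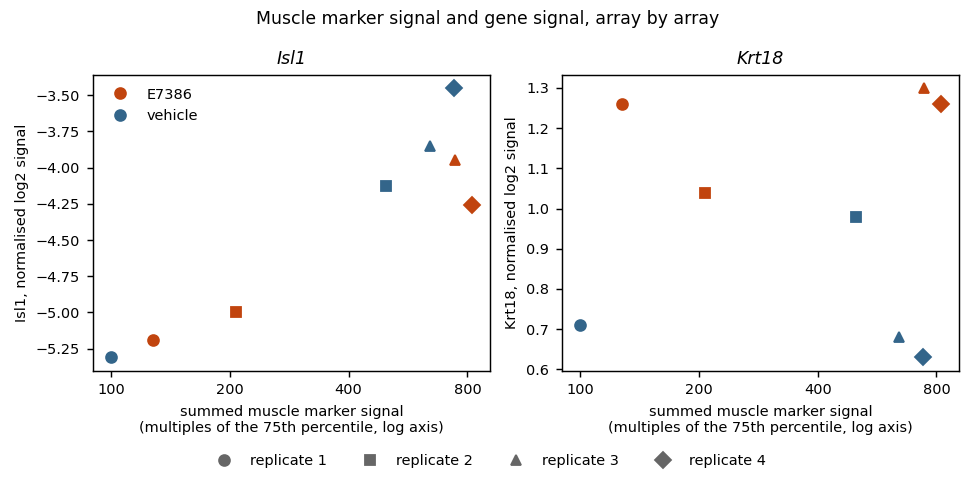
Signal of Isl1 (left) and Krt18 (right) as normalised log2 values against the summed signal of 11 muscle markers on a log axis, with 1 point per array, E7386 in orange, vehicle in blue and replicates as symbols. The 3 arrays with muscle sums of 100, 128 and 207 have the 3 lowest Isl1 values, from -5.31 to -5.00, whereas Krt18 is at 1.04 or more on every E7386 array at either end of the axis.

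Among the keratins, Krt18, the type I keratin of simple epithelia, came closest to the threshold. It had normalised log2 signals of 1.26, 1.04, 1.30 and 1.26 on E7386 arrays, against 0.71, 0.98, 0.68 and 0.63 on vehicle arrays. Every E7386 array lay above every vehicle array, with a narrow gap between E7386 replicate 2 and vehicle replicate 2. The mean was 1.22 ± 0.12 with E7386 and 0.75 ± 0.16 with vehicle (SD, n = 4 each), a log2 change of 0.47 (SE 0.10), or 1.38-fold with a 95% interval of 1.17 to 1.63. Its unadjusted p was 0.00193 and its limma adjusted p was 0.0868, the rank 565 by p among the genes tested. The adjusted p ranged from 0.0532 to 0.251 over 21 other settings, and the change from 0.39 to 0.54, so the gene stayed above the threshold of 0.05 in each of them.

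Krt8, the type II keratin that pairs with keratin 18, had 0.43, 0.72, 0.89 and 1.11 with E7386, against 0.46, 0.55, 0.61 and 0.46 with vehicle. E7386 replicates 2, 3 and 4 were above all vehicle arrays and E7386 replicate 1 was below them. The log2 change was 0.27 (SE 0.14, limma adjusted p = 0.425), with a fold interval from 0.961 to 1.51. Krt20, a type I keratin used as a diagnostic marker of Merkel cells, had -2.04, -1.91, -2.32 and -2.57 with E7386, against -2.72, -2.40, -2.40 and -2.37 with vehicle. E7386 replicates 1, 2 and 3 were above all vehicle arrays, while E7386 replicate 4 lay among them. Its log2 change was 0.26 (SE 0.16, limma adjusted p = 0.488), with a fold interval from 0.932 to 1.54.

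The 3 keratins did not share an order of arrays. Krt8 was highest on E7386 replicate 4, the array where Krt20 was lowest in its group. Over the 8 arrays the correlation of Krt8 with Krt18 was r = 0.59 (exact permutation p = 0.122, adjusted p = 0.367) and rho = 0.50 (exact permutation p = 0.216, adjusted p = 0.649). It fell to r = 0.06 without the 2 arrays farthest from the median of Krt8, E7386 replicates 3 and 4, so it rests on those arrays. Krt8 with Krt20 gave r = -0.12 (exact permutation p = 0.792, adjusted p = 0.792) and rho = 0.00 (p = 1.0, exact permutation), and r = 0.45 without the same arrays. Krt18 with Krt20 gave r = 0.35 (exact permutation p = 0.391, adjusted p = 0.587), rho = 0.24 (exact permutation p = 0.582, adjusted p = 0.873) and r = 0.41 without vehicle replicates 3 and 4. The p-values of these 3 pairs are two-sided and adjusted over the 3, and 4 arrays per group are too few for a value within groups. The arrays of both groups were pooled and permuted without regard to group. Each r, rho and p of these pairs therefore includes any difference between groups, as for Krt18. The named genes most like both keratins, by the mean of the correlations with Krt8 and Krt18 over 8 arrays among 15236 genes measured on every array, were Casc1 at 0.88, Fbxo32 at 0.87 and Cd164l2 at 0.87. The arrays of both groups are pooled in these values, and Casc1 (log2 change 0.61) and Fbxo32 (1.0) did not overlap between groups, with E7386 above vehicle as for Krt18, so the likeness includes the difference between groups.

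**Figure D3:**
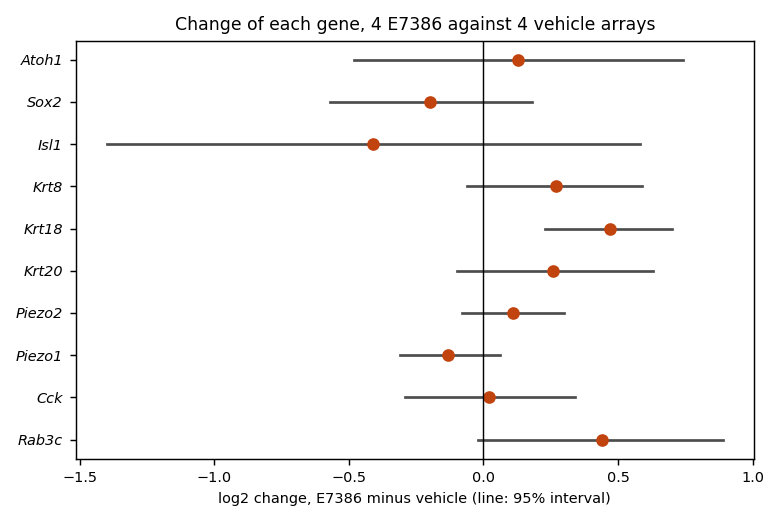
Log2 change of each gene, E7386 minus vehicle, as a point with its 95% interval as a line (limma, n = 4 per group). The interval of Krt18 runs from 0.23 to 0.70 and is the one that leaves out 0, without adjustment for the number of genes, and that of Isl1 is the widest, from -1.4 to 0.58.

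The mechanosensitive channels showed small differences with narrow intervals. Piezo2, the main force-gated channel of light touch, had -1.59, -1.63, -1.5 and -1.67 on E7386 arrays, against -1.72, -1.86, -1.61 and -1.65 on vehicle arrays. The groups overlapped, and all 8 values lay close together. The log2 change was 0.11 (SE 0.08, limma adjusted p = 0.577), and the 95% interval of the fold, 0.948 to 1.23, holds 1 and is among the narrowest of the 10 genes. Piezo1, the related channel of blood vessels and many epithelia, had 3.28, 3.37, 3.34 and 3.35 with E7386, against 3.52, 3.36, 3.36 and 3.60 with vehicle. Vehicle replicates 1 and 4 were above the rest, and the other vehicle arrays lay among the E7386 arrays. Its log2 change was -0.13 (SE 0.08, limma adjusted p = 0.504), with a fold interval from 0.808 to 1.04.

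Piezo2 has 2 further probes for the same gene. The first, A_55_P2139077, was well above background on all 8 arrays, at -3.57 ± 0.19 with E7386 and -3.69 ± 0.36 with vehicle (SD, n = 4 each), a difference of 0.13. The other, A_55_P2139069, stayed near background on every array (well above it on 0 of 8), so its difference of -0.63 is given without a reading. With the dim probe averaged in, the change of Piezo2 was -0.13 (limma adjusted p = 0.754).

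Of the neurosecretory genes, Cck, which encodes the peptide cholecystokinin, had 2.44, 2.49, 2.65 and 2.14 with E7386, against 2.25, 2.58, 2.24 and 2.56 with vehicle. The groups overlapped almost fully, and the highest and the lowest array were both E7386 arrays. The log2 change was 0.02 (SE 0.14, limma adjusted p = 0.96), the smallest of the 10, with a fold interval from 0.82 to 1.26. Its sign turned with array medians as the scale (-0.05), with normexp (-0.01) and without E7386 replicate 3, vehicle replicate 1 or vehicle replicate 3.

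Rab3c, a small GTPase of secretory vesicles, had 3.42, 3.44, 3.50 and 3.44 on E7386 arrays, against 3.02, 2.53, 2.92 and 3.59 on vehicle arrays. The E7386 arrays spanned 0.07 before rounding, while the vehicle arrays spanned 1.06, with vehicle replicate 4 above every E7386 array and the other 3 below. The log2 change was 0.44 (SE 0.20, limma adjusted p = 0.353), or 1.35-fold with a 95% interval of 0.988 to 1.85. Leaving out vehicle replicate 4, the highest of its group, gave 0.63 (limma adjusted p = 0.0891), and leaving out vehicle replicate 2, the lowest, gave 0.28 (adjusted p = 0.533). The average of all 3 probes gave 0.11 (adjusted p = 0.807). A second probe, A_55_P2182222, gave the same picture at 2.60 ± 0.11 with E7386 and 2.19 ± 0.44 with vehicle (SD, n = 4 each), a difference of 0.41. The third probe, A_55_P1956567, was near background, well above it on 3 of 4 E7386 arrays and 4 of 4 vehicle arrays. It differed by -0.52, with -5.78 on E7386 replicate 4 and -4.76 to -4.32 on the other E7386 arrays, against -4.33 to -4.28 on vehicle arrays. The sign for Rab3c therefore depends on the probe, and much of the difference on the dim probe comes from E7386 replicate 4.

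**Figure D4:**
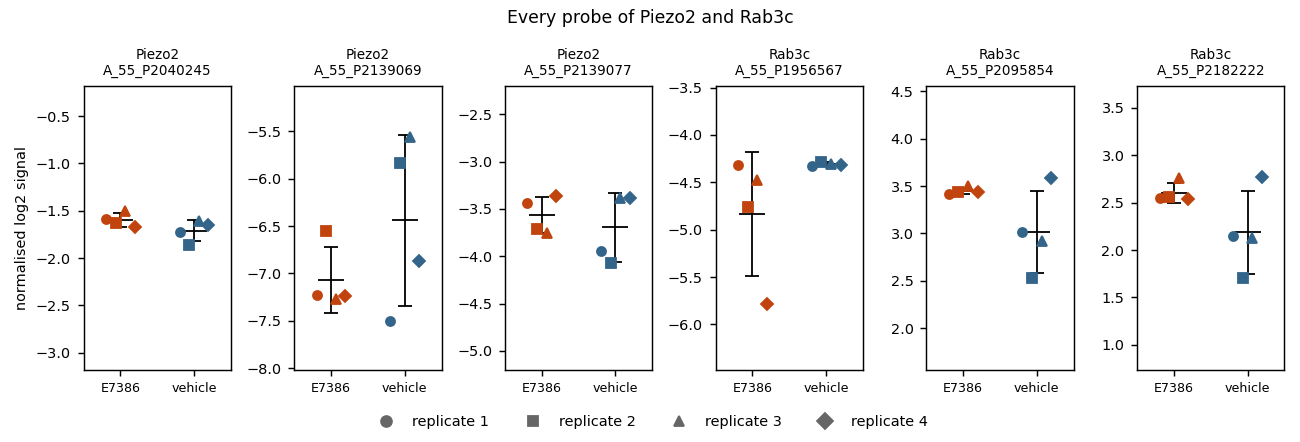
Normalised log2 signal of the 3 probes of Piezo2 and the 3 probes of Rab3c on every array, E7386 at the left and vehicle at the right of each panel, with replicates as symbols and the mean ± SD in black (n = 4 each). The 2 bright Rab3c probes share the order of the vehicle arrays, with replicate 2 lowest and replicate 4 highest, and the dim one (A_55_P1956567) does not.

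Atoh1 and Krt20 were picked for description after their values were seen, because their arrays lay in a like order. Both were highest on E7386 replicate 2, and both were lower on E7386 replicates 3 and 4 than on E7386 replicates 1 and 2. Their correlation over the 8 arrays was r = 0.87 and rho = 0.88, and r = 0.82 without E7386 replicates 2 and 4, the arrays farthest from the median of Atoh1. No p is given for this and the other 3 pairs with Atoh1, since all 4 were chosen on the same arrays. Insm1, a zinc finger factor of neuroendocrine cells, had -2.98, -2.31, -3.29 and -4.10 with E7386, against -3.0, -3.47, -2.78 and -2.81 with vehicle. Its correlation with Atoh1 was r = 0.87, rho = 0.86, and r = 0.46 without E7386 replicates 2 and 4, so it rests on those arrays. Gfi1, a zinc finger repressor that acts after Atoh1 in inner ear hair cells, had r = 0.79 with Atoh1, rho = 0.69, and r = 0.38 without the same arrays, and rests on them too. Sox2 had r = 0.67, rho = 0.83 and r = 0.59 without them. The E7386 arrays with low muscle sums, replicates 1 and 2, were those with high Atoh1, whereas vehicle replicate 1, with the lowest muscle sum of all, had the lowest Atoh1 of its group. The 75th percentile of the processed signal was 601.6, 620.2, 504.7 and 459.4 on E7386 arrays 1 to 4, against 656.2, 564.6, 615.8 and 580.2 on vehicle arrays. The scanner program's detection limit metric was out of range on E7386 replicate 4 and on vehicle replicates 1 and 2. The part of muscle content or of array quality in these values was not tested.

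**Figure D5:**
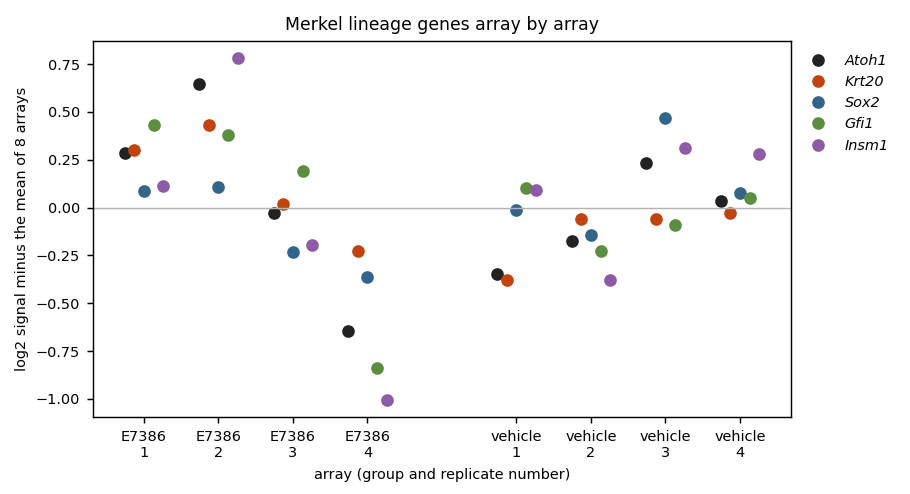
Log2 signal of Atoh1, Krt20, Sox2, Gfi1 and Insm1 on each array, as the difference from the gene's mean over 8 arrays, with 4 E7386 arrays at the left and 4 vehicle arrays at the right. On E7386 replicate 2 all 5 genes lie above their mean and on E7386 replicate 4 all 5 lie below it, while the vehicle arrays spread less for each gene but Sox2.

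Further genes of the same cell and its nerve were read from 7 lists with 107 genes, of which 91 were tested. 0 of the 91 passed the threshold in either direction (limma, adjusted p under 0.05), and 14, or 15.4%, had an unadjusted p under 0.05, near the 15.0% of all genes tested (7.87% higher and 7.13% lower). By list these were 2 of 8 fate genes (both higher), 4 of 21 release genes (1 higher, 3 lower), 1 of 14 cargo genes (higher), 0 of 9 voltage-gated channels, 1 of 17 mechanosensitive genes (higher), 1 of 8 keratin and surface genes (lower) and 5 of 14 neurotrophin genes (1 higher, 4 lower). Lists this short give counts only, and nothing particular to a list is read from them. Of 10 genes of Merkel cell fate, 8 were tested, with a median log2 change of 0.09. Nhlh1, a neuronal basic helix-loop-helix factor, had -0.54 ± 0.37 with E7386 and -1.17 ± 0.26 with vehicle (SD, n = 4 each), a difference of 0.64 (SE 0.20, limma adjusted p = 0.202). The average of all its probes gave 0.38, and leaving out E7386 replicate 1 gave 0.46. Fgfr1, a fibroblast growth factor receptor, differed by 0.23 (adjusted p = 0.196) and Sox21 by -0.28 (adjusted p = 0.395). Pou4f3, a factor shared with hair cells of the inner ear, did not pass the filter on dim probes.

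The vesicle release machinery had 21 tested genes of 25, with a median of -0.01. Sv2b, a synaptic vesicle glycoprotein, cleared background on 4 of 4 E7386 arrays and on 0 of 4 vehicle arrays, at least 1.63-fold higher with E7386 (limma adjusted p = 0.104), but with normexp the log2 change was 0.31 in place of 1.14, less than that bound. For that bound a dim array counts at its own signal or, where higher, at the dimmest signal called above background there. Bsn, a scaffold of the active zone, cleared background on 0 of 4 E7386 arrays and 3 of 4 vehicle arrays, at least 1.07-fold lower with E7386 (adjusted p = 0.168), and with normexp its log2 change was 0.01 in place of -0.71. Each of these genes passed the filter only through the group where it is brighter, so its difference is no support for a change. Rab3d, a paralog of Rab3c in secretory cells, was at 1.12 ± 0.07 with E7386 and 1.33 ± 0.04 with vehicle (SD, n = 4 each), a difference of -0.21 (adjusted p = 0.198), the opposite sign to the bright Rab3c probes.

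Of the neuroendocrine cargo and its processing enzymes, 14 of 16 were tested, with a median of 0.16. Penk, which encodes the enkephalin precursor, had 4.58, 4.77, 4.93 and 5.21 on E7386 arrays, against 3.86, 4.31, 4.33 and 4.61 on vehicle arrays. The groups overlapped by vehicle replicate 4 alone, which lay just above E7386 replicate 1. The difference was 0.59 (SE 0.19, limma adjusted p = 0.194), and with the muscle covariate it was 0.63 and passed (adjusted p = 0.0218). Cpe, a carboxypeptidase of secretory granules, differed by 0.23 (adjusted p = 0.392) and Pam, which amidates peptides, by -0.18 (adjusted p = 0.388). Vip and Sst did not pass the filter.

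Voltage-gated channels, 9 tested of 13, had a median of 0.12. Kcna2, a potassium channel, differed by 0.34 (SE 0.25), Cacna1d, an L-type calcium channel, by 0.29 (SE 0.29), and Scn8a, a sodium channel, by 0.12 (SE 0.14). Other mechanosensitive channels and their cofactors, 17 tested of 20, had a median of 0.05. Asic2, an acid-sensing channel of mechanosensory endings, differed by 0.52 (SE 0.23, limma adjusted p = 0.333), Tmem87a by 0.21 (adjusted p = 0.442) and Asic1 by -0.21 (adjusted p = 0.515). Kcna2, Cacna1d, Asic2 and Asic1 are dim. With normexp their differences were 0.20 (Kcna2), 0.17 (Cacna1d), 0.28 (Asic2) and 0.01 (Asic1). Stoml3, Trpa1 and Asic3, known from sensory neurons, did not pass the filter.

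All 8 genes of the list of other simple epithelial keratins and surface genes were tested, with 5 means higher with E7386, 3 lower and a median of 0.03. Krt19, the keratin of follicle stem cells and also of Merkel cells, had -0.51, -0.38, -0.71 and -1.07 with E7386, against -0.30, -0.30, -0.13 and -0.18 with vehicle. Every E7386 array lay below every vehicle array, with a difference of -0.44 (SE 0.15, limma adjusted p = 0.215). The groups of arrays did not overlap for 10.4% of all genes tested, in either direction. Among the named list genes they also did not overlap for Rab3d, Ngfr and Artn (lower with E7386). The same held for Fgfr1, Nhlh1, Sv2b and Bdnf (higher with E7386). Krt7 differed by 0.28 (SE 0.21, adjusted p = 0.581) and Krt80 by 0.17 (SE 0.08, adjusted p = 0.36).

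The neurotrophins and their receptors, 14 tested of 15, had a median of -0.04. Ngfr, the p75 neurotrophin receptor of Schwann cells, outer root sheath and dermal papilla, had 0.80, 0.17, 0.04 and -0.19 with E7386, against 1.12, 1.13, 1.32 and 1.26 with vehicle. Every E7386 array lay below every vehicle array, and E7386 replicate 1 was the nearest to them. The difference was -1.0 (SE 0.20, limma adjusted p = 0.0596), or 2.01-fold lower, and it passed the threshold in 7 of 21 other settings. Without E7386 replicate 1 it was -1.20 (limma adjusted p = 0.00743), the lowest adjusted p of all settings. Leaving out any other single array gave a limma adjusted p of 0.116 to 0.177, and the replicate block gave 0.143, so none of these passed. Bdnf, a ligand of the TrkB and p75 receptors, had -0.91 ± 0.24 with E7386 and -1.49 ± 0.20 with vehicle (SD, n = 4 each), a difference of 0.58 (SE 0.15, adjusted p = 0.119). Artn, a ligand of sensory neurons of the GDNF family, differed by -0.33 (SE 0.09, adjusted p = 0.124).

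Markers of the cell types in the follicle were summed in the same way as those of muscle. Of 12 Merkel cell markers, 10 were well above background on all 8 arrays, and their sum, which holds 9 of the 10 members (all but Piezo1), was 20.8 to 23.2 with E7386 and 16.3 to 22.2 with vehicle. Much of that sum is Rab3c and Cck. Without Rab3c it was 9.98 to 11.9 with E7386 and 8.92 to 10.5 with vehicle, and without both 5.17 to 5.59 with E7386 and 4.17 to 4.57 with vehicle (left out after the values were seen). Of 11 sensory axon markers 10 are on the array, of which Nefl, Nefm and Scn10a did not clear background anywhere and 5 did so on all 8 arrays. Their summed signal was 3.08 to 4.18 with E7386 and 3.87 to 4.82 with vehicle. Most of that sum on every array is 1 gene, Tubb3, which differed by -0.35 (SE 0.17, limma adjusted p = 0.389). The cell bodies of these nerves lie in the trigeminal ganglion, outside the follicle. All 12 Schwann cell markers were well above background on all 8 arrays, with sums of 61.9 to 84.4 with E7386 and 62.1 to 67.0 with vehicle. Sums were 11.5 to 15.1 with E7386 and 12.7 to 16.5 with vehicle for 10 dermal papilla markers, and 44.5 to 48.5 with E7386 and 43.6 to 57.1 with vehicle for 8 endothelial markers. They were 51.6 to 71.9 with E7386 and 40.4 to 78.3 with vehicle for 6 melanocyte markers, and 1060 to 1260 with E7386 and 1150 to 1240 with vehicle for 8 basal keratinocyte markers. The groups overlapped in the sum of each whole list but not in the Merkel sum without Rab3c and Cck. Much of that trimmed sum is Krt18 and Krt8, the brightest of the members left in it. Krt18 by itself had log2 signals of 1.04 to 1.3 with E7386 and 0.63 to 0.98 with vehicle. The gap in the trimmed sum is therefore not separate from that of Krt18, and a sum without these keratins was not tested. The part of cell makeup in the values above was not tested.

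Each array had 59305 spots for mouse transcripts, of which 61.5% to 61.9% were well above background with E7386 and 62.2% to 64.7% with vehicle, without overlap. Correlations between arrays of a group lay between 0.985 and 0.994, and no arrays were identical. All 8 arrays lie on 1 slide, E7386 in row 2 and vehicle in row 1, so for every gene the row and the treatment cannot be told apart. Same-numbered arrays of both groups share a column of the slide, and with that number as a block 0 of the 10 genes passed and Krt18 had an adjusted p of 0.201 (limma). The number of arrays limits the precision.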

How the data were processed

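Total RNA (50 ng per sample) was labelled with Cy3 and hybridised to 1-colour Agilent arrays, per the labels' protocols. The deposited scanner files hold an intensity per spot, background-corrected by Feature Extraction 11.5.1.1, per the file headers (version 11 per the submitters' processing notes), on an array designed on mm9. The authors' processed table is deposited on a log2 scale, with a median of 5.31 in every column, and served as an alternative.

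Control spots and spots marked as non-uniform or as outliers of their set (107 to 150 per array) were left out, and spots of a probe were averaged. The processed signal was put on the log2 scale and each array's 75th percentile was subtracted. Of 55681 probes, 27509 were named through RefSeq accessions of GRCm38.p6. A gene was kept where its brightest probe cleared background on 3 or 4 of the 4 arrays of a group. limma 3.58.1 in R 4.3.3 (lmFit, eBayes) tested 25352 genes, with Benjamini-Hochberg adjustment at 0.05 over all of them. The fit was tested on simulated data, and permutations used Python 3.11.15.

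The named genes are all 10 members, up to 3 genes with the smallest p of each further list plus any past the threshold, and the 3 genes most like Krt8 and Krt18; Gfi1 and Insm1 were added after their values were seen. Members and lists were chosen with earlier results of these data known. Alternatives covered background, scaling, filter, probe, variance model, weights, marked spots, the replicate block and leaving out each array.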

Additional observations from a re-analysis of the deposited data

Results flagged for a closer look

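Single arrays that stood apart from the other 3 of their group were looked for in 106 sets of 4 arrays, by the gap to the nearest array relative to the range, and 12 sets were marked, where chance marks about 1 in 20. Among the members, Krt18 was 1.04 on E7386 replicate 2, against 1.26 to 1.30 on the other E7386 arrays, and Krt20 was -2.72 on vehicle replicate 1, against -2.40 to -2.37. Of the other probes of members, A_55_P2139069 of Piezo2, not well above background, was -6.55 on E7386 replicate 2, and A_55_P2182222 of Rab3c was 2.76 on E7386 replicate 3, against 2.54 to 2.56. The Merkel cell marker sum was 22.2 on vehicle replicate 4, against 16.3 to 17.0 on the other vehicle arrays (without Rab3c, a gene of the sum, 10.2 against 8.92 to 10.5). The melanocyte marker sum was 71.9 on E7386 replicate 1, against 51.6 to 53.3 on the other E7386 arrays.

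Vehicle replicate 1 stood apart in 3 further genes, with Sox21 at 0.88, Bsn at -5.62 and Asic1 at -4.06. Vehicle replicate 3 had Pou4f3 at -5.09, against -5.63 to -5.58 on the other vehicle arrays. Cacna1d was -3.18 on E7386 replicate 3, and Nefl, near background everywhere, was -6.85 on E7386 replicate 1.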

How the results depend on the processing

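The count of members past the threshold, 0 in each direction, was the same in every setting tried except a threshold of 0.1 in place of 0.05, where 1 member (Krt18) was higher with E7386. Among the further lists, 1 gene (Ngfr) was lower with array detection required on all 8 arrays, eBayes with trend, eBayes with trend and robust, array weights, the 0.1 threshold, normexp on median signals and the muscle covariate, and 0 to 1 when single arrays were left out (1 without E7386 replicate 1). With the muscle covariate 1 (Penk) was higher. Normexp on mean signals could not be run because the scanner files hold median signals, and normexp on medians and the covariate were chosen after seeing the data. Of 209 values of members over 21 settings, 202 kept their sign and their side of the threshold and 7 changed sign: Cck with array medians (-0.05), with normexp (-0.01) and when 1 of 3 arrays was left out (range -0.05 to 0.12), Piezo2 with probes averaged (-0.13), and Atoh1 without E7386 replicate 2 (range -0.06 to 0.36). The dim probes of Piezo2 (-0.63) and Rab3c (-0.52) also had the opposite sign. Among list genes the sign turned for Scn8a with probes averaged (-0.08) and for Bsn (0.01) and Asic1 (0.01) with normexp, and the correlation of Krt8 with Krt20 turned to 0.45 without 2 arrays. The turn of Piezo2 comes from averaging in its dim probe; the cause of the others was not tested. As single arrays were left out, other members ranged over 0.16 to 0.38 (Krt8), 0.16 to 0.38 (Krt20), -0.27 to -0.07 (Sox2) and -0.16 to -0.08 (Piezo1). Same-numbered arrays of both groups did not deviate together in every pair (r of deviations 0.49, -0.17, 0.29 and 0.18), so pairing by number, which is also the slide column, was not taken as given; with the replicate block, Krt18 stayed at 0.47 (adjusted p = 0.201), 0 members passed, and 48 genes passed in all, against 287 without it. Over all genes the count past the threshold was also below 287 without a filter on dim probes (155) and when single arrays were left out (82 to 227), and above it at the 0.1 threshold (656) and with the muscle covariate (569). Isl1, Atoh1, Bsn, Sv2b, Kcna2, Cacna1d, Asic1 and Asic2 are dim, and their signal over background limits what can be read from them.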
